A study of Drosophila melanogaster with 72 samples.

Results

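The polysome to monosome ratio of mRNAs was compared between 15 d old and 2-3 d old Drosophila melanogaster females of 2 lines, Lsp2[A10] and Lsp2[B14]. The libraries were chosen by their labels: all polysome and monosome libraries of these lines, 24 of the 72 in the series. They fall into 4 groups, Lsp2[A10] at 15 d, Lsp2[B14] at 15 d, Lsp2[A10] at 2-3 d and Lsp2[B14] at 2-3 d, with 3 biological replicates each per the design text, and 1 monosome and 1 polysome library per replicate. The labels name no other allele, transgene or agent in these groups. They do not say what either Lsp2 allele does to the gene, which line is a control, or how many flies made up a sample. Whole bodies were ground in liquid nitrogen and the lysate was run through a 10 to 45% sucrose gradient, from which both fractions were collected. Poly(A) RNA of each fraction was sequenced as 150 base read pairs.

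In a sucrose gradient, an mRNA that carries a single ribosome sediments in the monosome fraction, and one that carries several sediments in the polysome fraction. A longer coding sequence has room for more ribosomes, so transcript length and position in the gradient can be related. The title of the study names mTORC1, the kinase complex that controls translation of mRNAs with a 5′ terminal oligopyrimidine (TOP) tract. TOP mRNAs encode ribosomal proteins and many translation factors. Thor, the fly 4E-BP, is a translation repressor that mTORC1 inactivates, and Lsp2 encodes a hexamer secreted by the larval fat body.

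Polysome libraries held 3134416 to 26811914 counts at 15 d, against 14661303 to 26252823 at 2-3 d. Monosome libraries held 5074901 to 19467406 counts at 15 d, against 5479727 to 13323055 at 2-3 d. The shallowest was the polysome library of Lsp2[A10] replicate 1 at 15 d, and that replicate stands apart in several results below. Counts come in a separate table for each age, so age and table, with any difference in culture, gradient or sequencing run, cannot be told apart in any comparison here. Yolk protein genes, which mark females, summed to 15112 to 22282 CPM (counts per 1000000 counts of the library) at 15 d and 10414 to 15719 CPM at 2-3 d over both fractions. The 11 Y-linked genes summed to at most 13.2 CPM at 15 d, in the Lsp2[A10] replicate 3 monosome library, and to at most 0.067 CPM at 2-3 d. The 11 male accessory gland genes summed to at most 2.21 CPM at 15 d, in the same library. At 2-3 d they summed to at most 4.04 CPM, in the Lsp2[B14] replicate 2 polysome library. The Lsp2[A10] replicate 3 monosome library at 15 d also had counts for 13209 genes, against at most 12435 in any other of the 24 libraries. Its deviations from its group had a correlation of −0.084 with those of the polysome library of the same number.

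Each gene is described below by its age change, the log2 polysome to monosome ratio at 15 d minus that at 2-3 d, from a single fit over the 24 libraries (edgeR quasi-likelihood test, Benjamini-Hochberg adjustment over 10324 genes, called at an adjusted p under 0.05), given ± its standard error. Over both alleles, 4391 genes were called (42.5%), of which 2091 were higher at 15 d (20.3% of genes tested) and 2300 were lower (22.3%). The median age change of all genes was −0.069, and among called genes 380 were higher and 212 lower by more than 1 log2 unit at 15 d. With libraries scaled to their totals the median of all genes moved to −0.36 and the split became 1070 higher and 4123 lower, so each value below is relative to a gene of about median change. Replicate 1 of Lsp2[A10] at 15 d did not carry the count: without it, 4426 genes were called, 2459 higher and 1967 lower. The lowest count, 3274 (1875 higher and 1399 lower), came without Lsp2[A10] replicate 3 at 15 d. Higher calls also outnumbered lower ones without Lsp2[A10] replicate 2 (2263 and 1636) or Lsp2[B14] replicate 3 (2266 and 1847) at 15 d.

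Each allele was also tested alone. In Lsp2[B14], 3349 genes were called (32.4%), 1512 higher (14.6%) and 1837 lower (17.8%) at 15 d. In Lsp2[A10], 503 were called (4.87%), 337 higher (3.26%) and 166 lower (1.61%). The count in Lsp2[A10] depended on single replicates: it was 7 without its 15 d replicate 3, and 12, 105 and 29 without its 2-3 d replicates 1, 2 and 3. The monosome library of that 15 d replicate 3 had the highest Y-linked sum and the most genes detected. Leaving out a Lsp2[B14] replicate changed the Lsp2[A10] count as well, to 284 and 300 without 15 d replicates 1 and 2 and to 1196 without 2-3 d replicate 1. The Lsp2[B14] count fell to 1821 without its 15 d replicate 2. Of the 337 genes called higher in Lsp2[A10], 280 were also called higher in Lsp2[B14], 83.1% of the first list and 18.5% of the second. Of the 166 called lower in Lsp2[A10], 145 were shared, 87.3% of the first list and 7.89% of the second. No gene was called in opposite directions. The alleles share no libraries, and across the 10324 genes their age changes had a Spearman correlation of 0.68. The difference between the alleles in the age change was itself tested and gave 0 genes in edgeR and 0 in DESeq2, with 663 at an unadjusted p under 0.05 in edgeR. These counts take monosome and polysome libraries as unpaired, since the labels do not state a pairing. Treating same-numbered libraries as pairs (a replicate block) gave 3 genes for the allele difference, 2325 in Lsp2[A10] and 4511 in Lsp2[B14].

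Genes that rose tended to have shorter transcripts than genes that fell, with overlap: at 1.5 to 2 kb 365 genes were called higher and 229 lower. Genes called higher at 15 d had a longest annotated transcript of 1150 bases (median), genes called lower 3492 bases, and genes not called 1976 bases. Across 10315 genes with an annotated length, the Spearman correlation of the age change with transcript length was −0.60 over both alleles and −0.56 in each allele alone. With no filter on low counts it was −0.34 over both alleles. The correlation was −0.55 with the length of the 3′ untranslated region, −0.45 with coding length, −0.45 with the 5′ untranslated region and −0.35 with the number of exons. These lengths are related to each other, and genes are not independent replicates, so no p is given. Mean expression showed little of this pattern (Spearman 0.054).

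**Figure D1:**
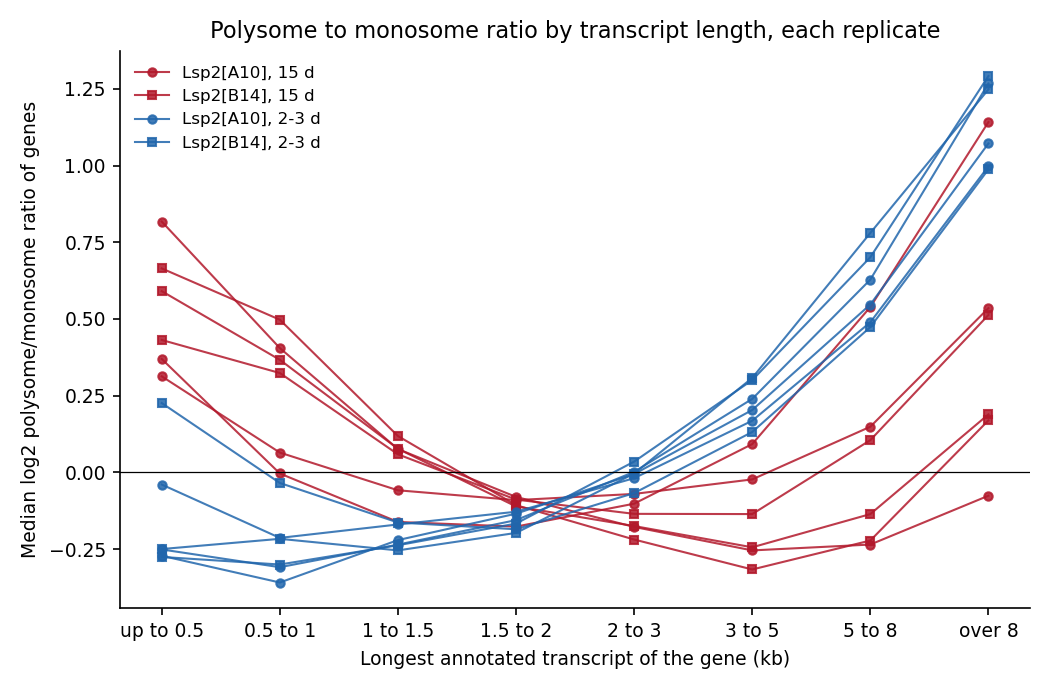
Median log2 polysome to monosome ratio of the genes in 8 bins of transcript length, 1 line per replicate, with 15 d in red and 2-3 d in blue, circles for Lsp2[A10] and squares for Lsp2[B14]. The blue lines climb to about 1 for transcripts over 8 kb, whereas the red lines start higher for short transcripts and, apart from Lsp2[A10] replicate 1 at 1.14, end at 0.54 or below.

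Among the 263 genes with a transcript of up to 0.5 kb, 107 (40.7%) were higher at 15 d and 4 (1.52%) were lower, with a median age change of 0.56. The 1509 genes of 0.5 to 1 kb had a median of 0.52, with 48.4% higher and 2.39% lower. The share of genes called lower grew with each step in length up to 53.3% of the 338 genes over 8 kb, whose median was −0.71 and of which 3 genes (0.888%) were higher. At 1.5 to 2 kb the median was 0.048, beside −0.069 for all genes. With library totals it was −0.24, beside −0.36 for all genes. Without Lsp2[A10] replicate 1 at 15 d it was 0.13, beside 0.0024 for all genes. On the ratio itself, the median log2 polysome to monosome ratio of genes up to 0.5 kb was 0.31 to 0.82 in the 6 replicates at 15 d, against −0.28 to 0.23 at 2-3 d, and the ages did not overlap. For genes over 8 kb it was −0.076 to 1.14 at 15 d, against 0.99 to 1.29 at 2-3 d. The overlap came from Lsp2[A10] replicate 1 at 15 d alone, as the next replicate stood at 0.54.

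A slope was fitted in each replicate, giving the log2 polysome to monosome ratio gained per doubling of transcript length. At 15 d it was 0.18, 0.051 and −0.21 in Lsp2[A10] replicates 1, 2 and 3, and −0.11, −0.18 and −0.030 in Lsp2[B14]. At 2-3 d it was 0.28, 0.23 and 0.30 in Lsp2[A10], and 0.32, 0.31 and 0.15 in Lsp2[B14]. The mean was −0.049 ± 0.15 at 15 d and 0.27 ± 0.067 at 2-3 d (SD, n = 6 each). The slope was positive in 2 of 6 replicates at 15 d and in all 6 at 2-3 d. The slope runs over all lengths, and the median ratio of genes over 8 kb was above 0 in 5 of 6 replicates at 15 d and in all 6 at 2-3 d. The difference of −0.32 had a two-sided exact permutation p of 0.00433, with 0.00216 the smallest that 6 against 6 replicates can give. Within Lsp2[A10] the difference was −0.27 and within Lsp2[B14] −0.37, each with the smallest exact p that 3 against 3 allow, 0.1. Without Lsp2[A10] replicate 1 at 15 d the difference over both alleles was −0.36, and without its replicate 3 at 15 d −0.28.

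Both fractions contributed. In polysome libraries 6288 genes differed between the ages (60.9%), 3085 higher (29.9%) and 3203 lower (31%) at 15 d. In monosome libraries 6557 differed (63.5%), 3388 higher (32.8%) and 3169 lower (30.7%). These splits depended on the scaling. With library totals they became 3424 higher and 2722 lower in polysomes, and 5512 higher and 1573 lower in monosomes. Log2 differences within a fraction given below rest on the scaling of the single fit. The correlation with length was −0.22 in polysomes and 0.24 in monosomes. Of the 2091 genes whose ratio rose, 1074 were called higher in polysomes and 1209 lower in monosomes. Of the 2300 whose ratio fell, 1090 were called lower in polysomes and 1425 higher in monosomes. These are bulk samples of whole flies, so fewer cells of a type and less RNA per cell cannot be told apart within a fraction.

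Functional classes were read from 43 gene lists by the number of members called and the median age change, beside 20.3% higher, 22.3% lower and a median of −0.069 over all genes. Across the 42 lists with at least 5 genes tested, the median age change followed the median transcript length (Spearman −0.87). For that reason values after removal of the length trend from each library are given beside the lists. Over all genes that fit called 1559 higher and 1460 lower, against 2091 and 2300 with the trend in place. Member counts without the length trend are to be read beside these. The removal did not take out all of the relation: list medians still followed median length after it (Spearman −0.46). Among lists with a median within 0.30 of 0, leaving out a single replicate often moved the median by more than 1.5 times, and the range is given where it did. The median of all genes moved too. It was 0.0024, 0.0017 and 0.015 without Lsp2[A10] replicates 1, 2 and 3 at 15 d, and −0.0056 without Lsp2[B14] replicate 3 at 15 d. The ranges are not corrected for this shift, so part of them is shared by all genes. With library totals as the scaling, 12 of the 43 list medians changed sign, and no direction is given for these below. They are the lists of initiation factors, elongation and release factors, aminoacyl-tRNA synthetases, ribosome biogenesis, spliceosome, endoplasmic reticulum folding, tricarboxylic acid cycle, glycolysis, antioxidant, phototransduction, histone variant and yolk protein genes.

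**Figure D2:**
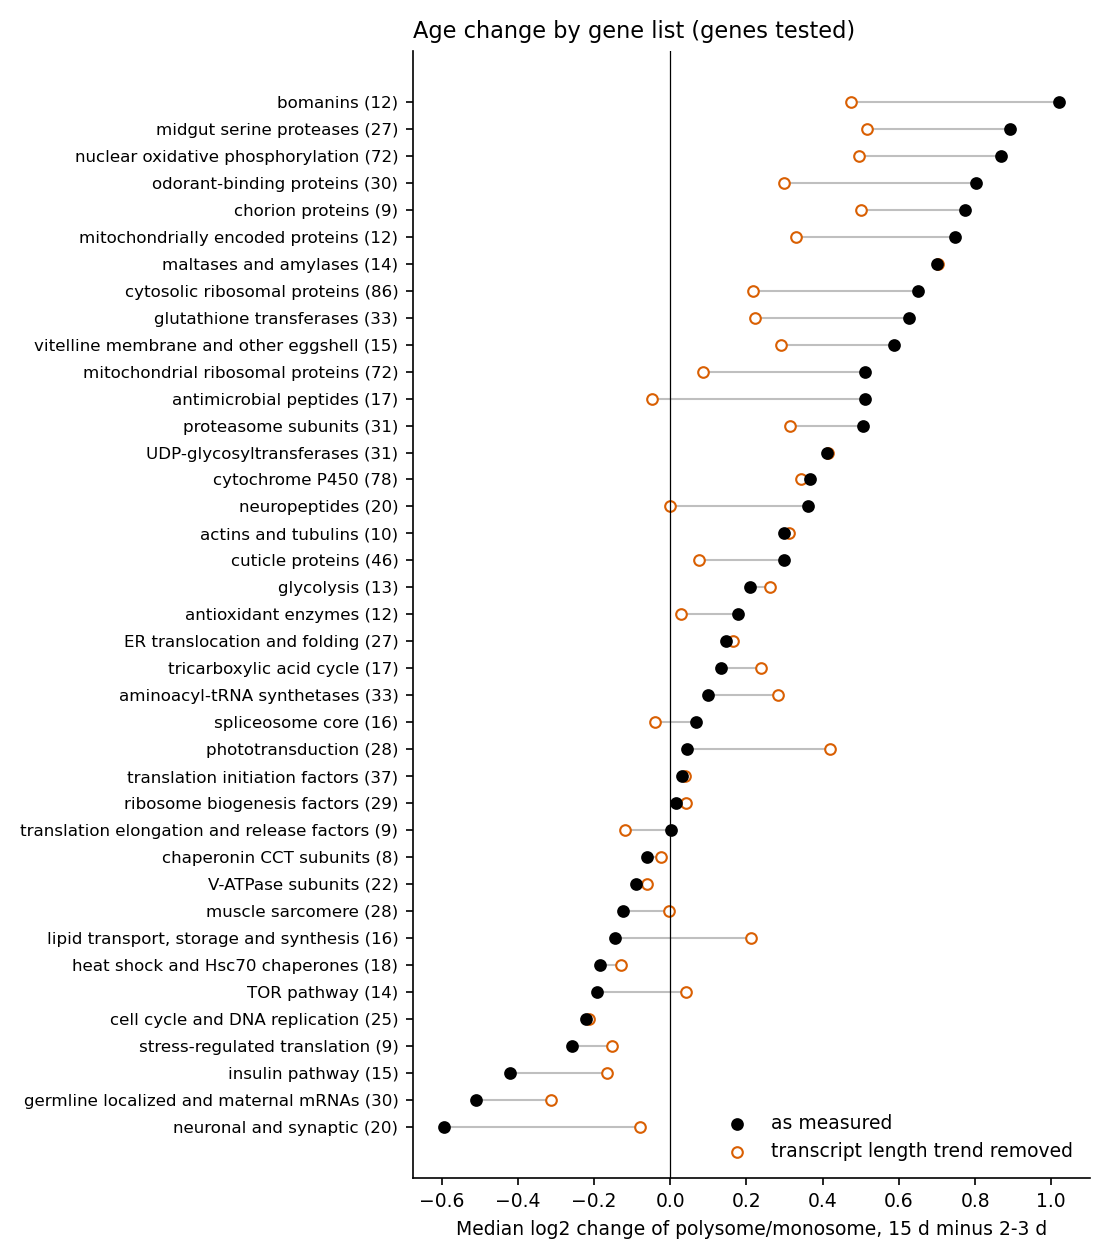
Median log2 age change of the polysome to monosome ratio (15 d minus 2-3 d) for gene lists with at least 8 genes tested, the number in brackets, as measured (black) and after removal of the transcript length trend (open orange). Most lists move toward 0 once the length trend is removed; maltases and amylases stay at 0.70, nuclear oxidative phosphorylation keeps 0.50 of 0.87, and neuronal genes move to −0.078 from −0.59.

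Most cytosolic ribosomal protein mRNAs, the core TOP class, rose in the polysome to monosome ratio. Of 88 listed genes, 86 were tested, 74 were higher at 15 d and none was lower. The median age change was 0.65 (0.48 in Lsp2[A10], 0.79 in Lsp2[B14]). The list's median log2 ratio was −0.17, −0.26 and 0.30 in Lsp2[A10] and 0.38, 0.28 and 0.28 in Lsp2[B14] females at 15 d, against −0.57, −0.37 and −0.57 in Lsp2[A10] and −0.51, −0.63 and −0.29 in Lsp2[B14] females at 2-3 d. All 6 replicates at 15 d lay above all 6 at 2-3 d, with Lsp2[A10] replicates 1 and 2 nearest to the younger flies. The mRNAs were less abundant in both fractions at 15 d: 55 members were lower in polysomes (median log2 difference −0.36) and 78 were lower in monosomes (median −0.95), with the larger difference in monosomes. Removing the length trend left a median age change of 0.22, with 30 members higher and 1 lower. Without Lsp2[A10] replicate 1 at 15 d the median was 0.75.

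RpL38 (FBgn0040007), a component of the large subunit, had the largest age change among ribosomal proteins, 1.37 ± 0.25 (adjusted p 0.000304). Its polysome to monosome ratio was 2.43, 1.86 and 3.09 in Lsp2[A10] and 3.18, 2.61 and 2.01 in Lsp2[B14] females at 15 d, against 0.922, 1.15 and 0.835 in Lsp2[A10] and 0.661, 0.868 and 1.26 in Lsp2[B14] females at 2-3 d. RpS3A (FBgn0017545), of the small subunit, rose by 1.13 ± 0.17 (adjusted p 7.36e-05), with ratios of 0.925 to 2.57 at 15 d and 0.693 to 0.811 at 2-3 d. The ages did not overlap for either gene. RpL3, one of the longer members with a 1688 base transcript, had the lowest value at −0.026 ± 0.11 (adjusted p 0.871).

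Other parts of the translation machinery had calls in both directions. Of 37 initiation factors tested (of 44 listed), 11 were higher and 4 lower, with a median of 0.032 (0.039 without the length trend, and 0.035 to 0.15 with 1 replicate left out). The short mRNAs eIF3k (853 bases, 0.64 ± 0.14, adjusted p 0.00106) and eIF3g1 (1027 bases, 0.59 ± 0.19, adjusted p 0.0171), subunits of the scaffold that binds the small ribosomal subunit, rose. The long mRNAs eIF4G2 (8889 bases, −0.96 ± 0.21, adjusted p 0.0012) and eIF4H1 (3898 bases, −1.01 ± 0.24, adjusted p 0.00213) fell. The calls of eIF3k, eIF3g1 and eIF4G2 were lost once the length trend was removed, and that of eIF3g1 also with library totals. Within this list the Spearman correlation of age change and transcript length was −0.78, and it was below 0 in 27 of the 28 lists with at least 15 genes.

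Elongation and release factors had 1 member higher and 0 lower of 9. That member was eEF1beta, an exchange factor of the elongation step, at 0.45 ± 0.12 (adjusted p 0.00623), not called with library totals or without the length trend. Of 33 aminoacyl-tRNA synthetases, which charge tRNAs, 9 were higher and 2 lower, and 15 higher and 1 lower without the length trend. GlnRS rose by 0.61 ± 0.13 (adjusted p 0.000809), and the mitochondrial AspRS-m fell, at −0.61 ± 0.12 (adjusted p 0.000553; call lost without the length trend). Among 29 ribosome biogenesis factors 2 were higher, NHP2 (0.78 ± 0.17, adjusted p 0.000993) and Nle (0.51 ± 0.14, adjusted p 0.00764; lost with library totals), and 2 were lower, including Nop60B (−0.44 ± 0.11, adjusted p 0.00361; lost without the length trend), the pseudouridine synthase of ribosomal RNA. The median age change was 0.0025 for elongation and release factors (−0.12 without the length trend, and −0.033 to 0.12 with 1 replicate left out). It was 0.10 for aminoacyl-tRNA synthetases (0.28 without the length trend, and 0.11 to 0.24 with 1 replicate left out) and 0.016 for biogenesis factors (0.043 without the length trend, and −0.036 to 0.12 with 1 replicate left out).

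Regulators of translation were read gene by gene. Thor (FBgn0261560; 2L, 3478434 to 3479612, plus strand, BDGP6.54) has a 755 base transcript. Its polysome to monosome ratio was 0.987, 1.03 and 1.52 in Lsp2[A10] and 1.21, 1.37 and 1.23 in Lsp2[B14] females at 15 d, against 0.656, 0.755 and 0.659 in Lsp2[A10] and 0.715, 0.715 and 0.853 in Lsp2[B14] females at 2-3 d. Every 15 d replicate lay above every 2-3 d replicate, and the age change of 0.75 ± 0.13 (adjusted p 0.000177) was alike in Lsp2[A10] (0.75, adjusted p 0.028) and Lsp2[B14] (0.75, adjusted p 0.00404). Thor was less abundant at 15 d in polysomes (−0.57, adjusted p 1.09e-05) and more so in monosomes (−1.32, adjusted p 3.17e-11).

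Among 14 TOR pathway genes, 2 were higher, Thor and the GTPase RagA-B, and 4 were lower. The list median was −0.19 (0.041 without the length trend, and −0.20 to −0.11 with 1 replicate left out). RagA-B was named after its value was seen, as 1 of the pair that rose. Tsc1, an inhibitor of the pathway, fell (−0.73 ± 0.17, adjusted p 0.00214), as did rictor, a subunit of mTORC2 (−0.66 ± 0.17, adjusted p 0.00358; call lost without the length trend). raptor, the mTORC1 scaffold, had the list's highest value but was uneven, with ratios of 0.961 to 9.86 at 15 d and 0.892 to 6.04 at 2-3 d (1.58 ± 1.16, adjusted p 0.288). Of 15 insulin pathway genes 2 were higher and 5 lower (median −0.42, −0.16 without the length trend). Pi3K21B, the regulatory subunit of the PI 3-kinase, fell (−0.93 ± 0.16, adjusted p 0.000136), and the receptor InR stood at −0.86 ± 0.40 (adjusted p 0.0868), not called. Stress-regulated translation genes had a median of −0.26 (−0.15 without the length trend, and −0.29 to −0.15 with 1 replicate left out). Of 9 tested 3 were lower, among them the eIF2alpha kinase PEK (−0.77 ± 0.13, adjusted p 0.000132), with ratios of 0.716 to 1.12 at 15 d and 1.36 to 1.71 at 2-3 d.

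Lsp2 itself (FBgn0002565; 3L, 12129393 to 12131869, plus strand, 1 exon) was scarce. In polysomes it stood at 7.98, 1.27 and 0.398 CPM in Lsp2[A10] and 4.64, 2.75 and 43.9 CPM in Lsp2[B14] at 15 d, against 5.97, 6.67 and 6.18 CPM in Lsp2[A10] and 70.5, 68.9 and 34.1 CPM in Lsp2[B14] at 2-3 d. In monosomes it stood at 0.752, 1.87 and 0.514 CPM in Lsp2[A10] and 4.80, 3.38 and 50.2 CPM in Lsp2[B14] at 15 d, against 2.35, 3.68 and 2.79 CPM in Lsp2[A10] and 13.2, 20.8 and 19.3 CPM in Lsp2[B14] at 2-3 d. Lsp2[B14] replicate 3 at 15 d was far above the others of its group in both fractions, and the age change was not called (−0.89 ± 1.17, adjusted p 0.565). The 6 larval serum and fat body genes had a median of −1.31 (−1.31 without the length trend), with 2 lower, and their polysome level was lower at 15 d for all 6 (median −3.0). The median age change was −1.95 without Lsp2[A10] replicate 1 at 15 d, −0.76 without replicate 2 and −0.81 without Lsp2[B14] replicate 3. Lsp1beta, another larval hexamer, fell by 1.71 ± 0.52 (adjusted p 0.0134), a call lost without Lsp2[A10] replicate 2 at 15 d. Its ratio was 4.09, 0.541 and 0.760 in Lsp2[A10] and 0.646, 0.728 and 0.458 in Lsp2[B14] females at 15 d, against 3.08, 2.47 and 2.37 in Lsp2[A10] and 3.70, 3.24 and 2.14 in Lsp2[B14] females at 2-3 d, so Lsp2[A10] replicate 1 at 15 d stood above every 2-3 d replicate and the other 5 below them all. The 12 larval markers, which include all of these but Lsp2, summed to 8.11 to 90.3 CPM in polysomes at 15 d, against 117 to 736 CPM at 2-3 d. The 90.3 CPM was Lsp2[A10] replicate 1, and the next highest at 15 d was 18.8 CPM, in Lsp2[B14] replicate 2. In polysomes all 12 were detected, with 3 above a mean of 1 CPM at 15 d and 6 at 2-3 d. In monosomes the markers summed to 12.3 to 46.7 CPM at 15 d and 42.7 to 193 CPM at 2-3 d, which overlapped. Their part in these values was not tested.

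**Figure D3:**
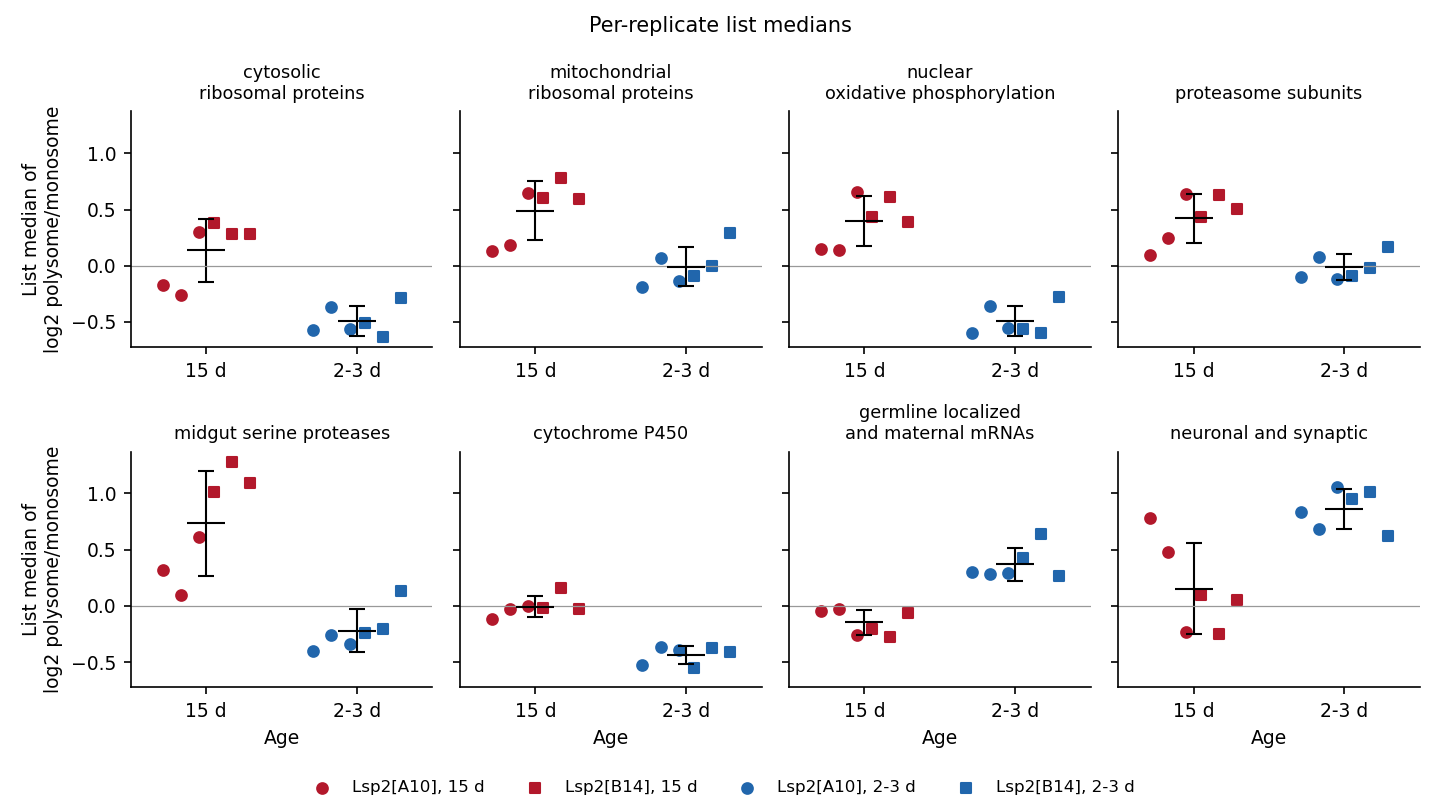
List median of the log2 polysome to monosome ratio in each replicate for 8 gene lists, 15 d left of 2-3 d, circles for Lsp2[A10] and squares for Lsp2[B14], bars showing the mean and SD of the 6 replicates. Lists of short mRNAs have a higher mean at 15 d, cytochrome P450 genes do so with a small spread, and the neuronal list sits lower at 15 d except in Lsp2[A10] replicate 1.

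Most nuclear genes of oxidative phosphorylation rose in the ratio. Of 87 listed genes 72 were tested, 64 were higher and none was lower, with a median age change of 0.87. In Lsp2[A10] alone 37 members were called and in Lsp2[B14] alone 56, all higher, where the 2 alleles called 3.26% and 14.6% of all genes higher. The list median of the log2 ratio was 0.15, 0.14 and 0.66 in Lsp2[A10] and 0.44, 0.61 and 0.39 in Lsp2[B14] females at 15 d, against −0.60, −0.36 and −0.55 in Lsp2[A10] and −0.56, −0.60 and −0.28 in Lsp2[B14] females at 2-3 d, with no overlap between the ages. As for ribosomal proteins, members were less abundant at 15 d in both fractions, 42 of them in polysomes (median −0.38) and 66 in monosomes (median −1.30). Removing the length trend left 55 of the 72 higher and a median age change of 0.50, and leaving out Lsp2[A10] replicate 1 at 15 d gave a median of 0.99.

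UQCR-14 (FBgn0030733; X at 16286288 to 16286988, plus strand), a subunit of complex III, had ratios of 1.33, 1.33 and 2.38 in Lsp2[A10] and 2.24, 2.60 and 2.04 in Lsp2[B14] females at 15 d, against 0.624, 0.800 and 0.682 in Lsp2[A10] and 0.474, 0.548 and 0.793 in Lsp2[B14] females at 2-3 d. Its age change was 1.58 ± 0.22 (adjusted p 3.73e-05). Its monosome level was 553 to 668 CPM (median 571) at 15 d, against 1876 to 4593 CPM (median 3104) at 2-3 d, while its polysome level was 875 to 1439.5 CPM (median 1196) at 15 d, against 1266 to 3115 CPM (median 1769) at 2-3 d, where the ages overlapped. COX7AL2 (FBgn0085201; 2L at 2192525 to 2197912, minus strand), a complex IV subunit paralog, rose by 1.98 ± 0.31 (adjusted p 0.000122). The small membrane subunits of complex II, SdhD (1.38 ± 0.15, adjusted p 4.09e-06) and SdhC (1.07 ± 0.19, adjusted p 0.000191), rose too, whereas the long SdhA mRNA (2750 bases) stood at −0.035 ± 0.086 (adjusted p 0.765).

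The other mitochondrial and metabolic lists moved less. Of 72 mitochondrial ribosomal protein genes 46 were higher and 1 lower (median 0.51), but the median dropped to 0.086, with 15 higher and 6 lower, once the length trend was removed. mRpL30 rose by 1.03 ± 0.17 (adjusted p 0.000141) and mRpS5 was the member that fell, at −0.59 ± 0.22 (adjusted p 0.0356), a call that 10 alternatives ended. Of 17 tricarboxylic acid cycle genes 7 were higher and 0 lower (median 0.13, 0.24 without the length trend, and 0.11 to 0.26 with 1 replicate left out). The glycolysis median was 0.21 (0.26 without the length trend). Of 13 glycolysis genes 6 were higher, among them Pgk (0.54 ± 0.10, adjusted p 0.000428), and 1 was lower, Hex-A (−0.41 ± 0.10, adjusted p 0.00366; lost without the length trend).

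The 12 mitochondrially encoded mRNAs tested behaved differently. Their level was far higher at 15 d in both fractions, with a median difference of 4.52 log2 units in polysomes and 3.39 in monosomes and 11 of 12 called in each. The ratio was called higher for 3 of them and lower for none, with a median age change of 0.75 (0.33 and 1 higher without the length trend). That median was 1.14 in Lsp2[A10] and 0.19 in Lsp2[B14]. The list median of the log2 ratio overlapped between the ages, at −0.81 to 0.48 at 15 d and −1.10 to −0.48 at 2-3 d. mt:ND4 (FBgn0262952), a complex I subunit, stood at 148 to 387 CPM (median 252) at 15 d, against 1.64 to 4.43 CPM (median 2.47) at 2-3 d in polysomes and at 68.9 to 268 CPM (median 118) at 15 d, against 4.14 to 8.85 CPM (median 6.78) at 2-3 d in monosomes. In total RNA libraries of the same lines mt:ND4 differed far less. It stood there at 268 to 1289 CPM (median 767) at 15 d, against 131 to 581 CPM (median 452) at 2-3 d, and the ages overlapped. Its ratio was 1.25 to 2.49 at 15 d and 0.280 to 0.748 at 2-3 d, an age change of 2.22 ± 0.41 (adjusted p 0.000423), the largest rise over both alleles among the genes named. These mRNAs are translated by mitochondrial ribosomes inside the organelle, and how they reached either gradient fraction was not tested.

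**Figure D4:**
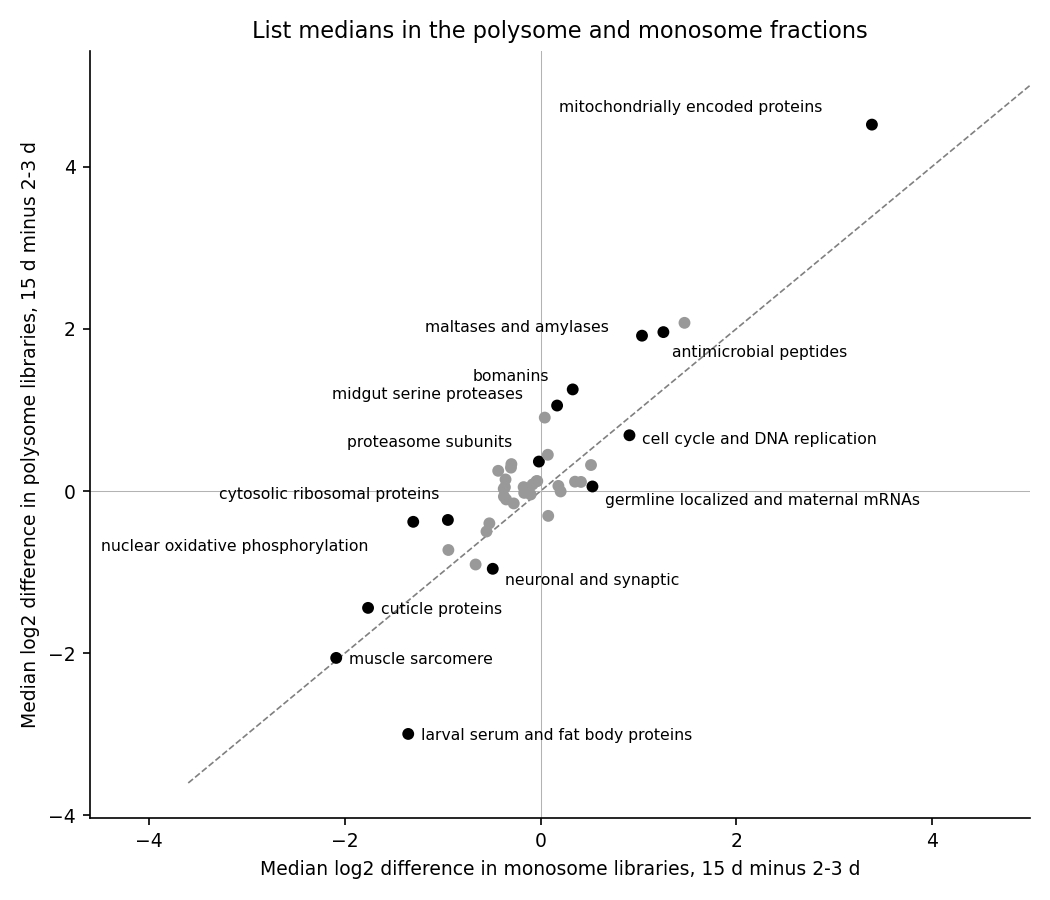
Median log2 difference between 15 d and 2-3 d of each gene list with at least 5 genes tested, in monosome libraries (horizontal axis) and polysome libraries (vertical axis), with the dashed line marking equal differences. Ribosomal protein and oxidative phosphorylation lists lie above the line through a larger loss from monosomes, muscle genes lie on it at about −2, and germline and neuronal lists lie below it.

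Protein turnover and folding lists were mixed. Of 31 proteasome subunits 21 were higher and none lower (median 0.51, 0.32 without the length trend). Prosbeta6, a subunit of the catalytic ring, had ratios of 0.792 to 1.26 at 15 d and 0.408 to 0.604 at 2-3 d (1.03 ± 0.15, adjusted p 4.15e-05). Prosalpha5 rose by 0.94 ± 0.14 (adjusted p 4.58e-05). The longer lid subunits Rpn5 (−0.10 ± 0.11, adjusted p 0.472) and Rpn6 (−0.039 ± 0.12, adjusted p 0.807) were not called. Of 27 genes for entry and folding in the endoplasmic reticulum 9 were higher and 1 lower, with a median of 0.15 (0.16 without the length trend, and 0.13 to 0.27 with 1 replicate left out). The highest was the oligosaccharyltransferase subunit Ostgamma (0.83 ± 0.14, adjusted p 0.000132). Of 8 CCT chaperonin subunits 1 was lower, CCT2 (−0.41 ± 0.13, adjusted p 0.0138), a call lost when any of 3 of the 15 d replicates was left out. The CCT median was −0.06 (−0.024 without the length trend, and −0.11 to 0.035 with 1 replicate left out). Of 18 heat shock and Hsc70 genes tested 1 was higher and 2 lower (median −0.18, −0.13 without the length trend, and −0.22 to −0.10 with 1 replicate left out).

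Most digestive proteases of the midgut rose in the ratio. Of 27 trypsins and Jonah proteases, which digest dietary protein, 19 were higher and none lower, with a median of 0.89 (0.52 without the length trend). The number called differed between the alleles, though in the same fit no gene was called for the allele difference itself. In Lsp2[A10] alone 0 members were called (median 0.54) and in Lsp2[B14] alone 16, all higher (median 1.13), where the 2 alleles called 3.26% and 14.6% of all genes higher. The list median ran from 0.095 to 1.28 at 15 d, against −0.40 to 0.13 at 2-3 d, and Lsp2[B14] replicate 3 at 2-3 d overlapped Lsp2[A10] replicate 2 at 15 d. Jon99Ciii (FBgn0003357; 3R at 29922216 to 29923455, plus strand) had ratios of 0.940, 0.865 and 1.25 in Lsp2[A10] and 1.55, 2.04 and 1.86 in Lsp2[B14] females at 15 d, against 0.504, 0.595 and 0.536 in Lsp2[A10] and 0.450, 0.434 and 0.611 in Lsp2[B14] females at 2-3 d. Its age change was 1.37 ± 0.25 (adjusted p 0.000339). Near-identical Jonah copies may share reads, which makes their single values uncertain. Of 14 maltases and amylases, which split starch and sugars, 8 were higher and none lower (median 0.70, and 0.70 without the length trend). Their list median ran from −0.10 to 0.45 at 15 d, against −0.63 to −0.27 at 2-3 d.

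Mal-A1, a maltase, stood at 63.3 to 97.5 CPM (median 80.5) at 15 d, against 3.69 to 13.5 CPM (median 7.71) at 2-3 d in polysomes and at 35.1 to 76.1 CPM (median 61.0) at 15 d, against 8.77 to 24.4 CPM (median 11.4) at 2-3 d in monosomes, so it was more abundant at 15 d in both fractions without overlap. Its ratio was 1.05 to 1.80 at 15 d and 0.423 to 0.779 at 2-3 d (1.12 ± 0.27, adjusted p 0.0023). The 7 midgut markers, all detected, moved with the age as well: they summed to 13292 to 22469 CPM in polysomes at 15 d and 6166 to 12451 CPM at 2-3 d, and to 7728 to 14482 CPM in monosomes at 15 d and 6686 to 11160 CPM at 2-3 d. By allele at 15 d, the markers summed to 14819, 14904 and 13292 CPM in polysomes and 12309, 14482 and 10624 CPM in monosomes of Lsp2[A10]. In Lsp2[B14] they summed to 15775, 22469 and 18109 CPM in polysomes and 7728, 9215 and 8959 CPM in monosomes. The markers' part in the values of these lists was not tested.

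Many cytochrome P450 and glutathione transferase mRNAs rose, enzymes that modify and conjugate foreign compounds. Of 78 cytochrome P450 genes tested (of 84) 31 were higher and 2 lower, with a median of 0.37. The mean over replicates of the list's median log2 ratio was −0.0081 ± 0.092 at 15 d, against −0.44 ± 0.081 at 2-3 d (SD, n = 6 each). Removal of the length trend gave a median age change of 0.34 with 30 higher. Cyp4ac2 rose by 1.34 ± 0.28 (adjusted p 0.000771) and Cyp28d1 by 1.14 ± 0.24 (adjusted p 0.00089), and Cyp6a22 fell (−0.79 ± 0.17, adjusted p 0.00117). Of 31 UDP-glycosyltransferases 8 were higher and 1 lower (median 0.41, 0.42 without the length trend), a share of higher genes near the 20.3% of all genes. Ugt35B1 had ratios of 1.12 to 3.0 at 15 d and 0.439 to 0.889 at 2-3 d (1.51 ± 0.20, adjusted p 3.56e-05).

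Of 33 glutathione transferases 23 were higher and 1 lower, with a median of 0.63 that became 0.22 without the length trend. GstD7 rose by 1.40 ± 0.27 (adjusted p 0.000407). GstS1, the member that fell, stood at −0.84 ± 0.14 (adjusted p 0.000136) with ratios of 0.839 to 1.02 at 15 d and 1.44 to 2.36 at 2-3 d. The superoxide dismutases Sod1 (0.77 ± 0.15, adjusted p 0.000388) and Sod2 (0.82 ± 0.15, adjusted p 0.000318) rose among 12 antioxidant genes, of which 5 were higher and 2 lower (median 0.18, 0.027 without the length trend, and 0.13 to 0.28 with 1 replicate left out).

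Most bomanins, short secreted immune peptides, rose. All 12 bomanins, peptides induced through the Toll pathway, were tested, and 9 were higher and none lower. Their median was 1.02, the highest of the 43 lists, and 0.47 without the length trend. Their median transcript is 386 bases long, and near-identical copies may share reads. BomS1 had ratios of 1.82 to 3.36 at 15 d and 0.730 to 1.40 at 2-3 d (1.28 ± 0.26, adjusted p 0.000815). Of 17 antimicrobial peptides tested 3 were higher, including the antifungal Drs (0.96 ± 0.25, adjusted p 0.00401), and 14 were more abundant in polysomes at 15 d (median difference 1.96). The median age change of antimicrobial peptides was 0.51, and −0.049 without the length trend. Of 30 odorant-binding proteins, small carriers of the antenna and other tissues, 20 were higher and none lower (median 0.80, 0.30 without the length trend). Obp99a rose by 1.45 ± 0.25 (adjusted p 0.000187).

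Eggshell genes rose more often than they fell. Of 9 chorion proteins, made by follicle cells for the eggshell, 6 were higher and none lower, with a median of 0.77 (0.50 without the length trend). Their list median ran from 0.47 to 1.23 at 15 d, against −0.22 to 0.26 at 2-3 d. Cp15 had ratios of 1.66 to 3.84 at 15 d and 0.851 to 1.55 at 2-3 d (1.21 ± 0.28, adjusted p 0.00202). Of 15 vitelline membrane and other eggshell genes 9 were higher (median 0.59, 0.29 without the length trend), such as yellow-g (1.05 ± 0.21, adjusted p 0.000634). Of the 3 yolk proteins (median 0.28, 0.16 without the length trend) Yp3 was called (0.56 ± 0.14, adjusted p 0.0033).

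Maternal and germline mRNAs fell more often than they rose. Of 30 tested 16 were lower at 15 d and 2 higher, with a median of −0.51 and −0.31 without the length trend, when 13 were lower and 0 higher. The list median of the log2 ratio was −0.049, −0.024 and −0.26 in Lsp2[A10] and −0.20, −0.27 and −0.066 in Lsp2[B14] females at 15 d, against 0.30, 0.28 and 0.29 in Lsp2[A10] and 0.43, 0.64 and 0.27 in Lsp2[B14] females at 2-3 d, with no overlap. The level in polysomes was about the same at both ages (median 0.056, 9 higher and 8 lower), and in monosomes 20 members were higher at 15 d (median 0.53).

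smg (FBgn0016070; 3L at 8990317 to 8997989, minus strand), a translational repressor of maternal mRNAs, had ratios of 1.02, 0.942 and 0.682 in Lsp2[A10] and 0.619, 0.581 and 0.778 in Lsp2[B14] females at 15 d, against 1.51, 1.44 and 1.68 in Lsp2[A10] and 1.84, 1.96 and 1.62 in Lsp2[B14] females at 2-3 d. Its age change was −1.13 ± 0.17 (adjusted p 5.49e-05). It stood at 718 to 994 CPM (median 791) at 15 d, against 295 to 557 CPM (median 429) at 2-3 d in monosomes. orb (FBgn0004882; 3R at 23260610 to 23280856, minus strand), a CPEB protein that activates localized mRNAs, fell by 1.13 ± 0.20 (adjusted p 0.000256). The 8 ovary germline markers, 7 of them above 1 CPM at 15 d and 6 at 2-3 d, summed to 194 to 255 CPM in polysomes at 15 d and 152 to 288 CPM at 2-3 d, and to 230 to 278 CPM in monosomes at 15 d and 99.6 to 202 CPM at 2-3 d. Their part in the list's values was not tested.

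Cell cycle and DNA replication genes were more abundant at 15 d in both fractions (21 of 25 higher in polysomes and 22 in monosomes) but lower in the ratio. The median age change was −0.22 (−0.21 without the length trend), with 2 higher and 10 lower. Without Lsp2[A10] replicate 1 at 15 d the median was −0.095, and without Lsp2[B14] replicate 3 at 15 d −0.14. stg, the Cdc25 phosphatase that triggers mitosis, had ratios of 0.555 to 0.844 at 15 d and 1.13 to 1.94 at 2-3 d (−0.98 ± 0.15, adjusted p 7.18e-05). CycB, a mitotic cyclin stored in the oocyte, fell by 0.69 ± 0.18 (adjusted p 0.00476).

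Several neuronal mRNAs fell, and the list's ratio differed between single replicates. Of 20 neuronal and synaptic genes 9 were lower at 15 d and none higher, with a median of −0.59. The list median was 0.78, 0.48 and −0.23 in Lsp2[A10] and 0.10, −0.26 and 0.054 in Lsp2[B14] females at 15 d, against 0.83, 0.68 and 1.06 in Lsp2[A10] and 0.95, 1.02 and 0.62 in Lsp2[B14] females at 2-3 d. Lsp2[A10] replicate 1 at 15 d lay among the 2-3 d replicates, replicate 2 just below them, and the other 4 well below. These genes have long transcripts (median 6485 bases), and without the length trend the median age change was −0.078 with 3 lower. Without Lsp2[A10] replicate 3 at 15 d it was −0.38. The GABA receptor subunit Rdl fell by 1.20 ± 0.23 (adjusted p 0.000322) and the vesicle fusion protein Snap25 by 1.23 ± 0.34 (adjusted p 0.00669), the second call being lost without Lsp2[A10] replicate 3 at 15 d. The 5 neuronal markers, all detected and all members of this list, summed to 65.4 to 100.5 CPM in polysomes at 15 d and 141 to 192 CPM at 2-3 d, and to 59.9 to 92.4 CPM in monosomes at 15 d and 77.0 to 113 CPM at 2-3 d. Their part in the list's values was not tested.

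Of 28 phototransduction genes, known from photoreceptors and read here in whole bodies, 9 were higher and 4 lower (median 0.044, 0.42 without the length trend, and −0.0043 to 0.16 with 1 replicate left out). Arr1, an arrestin that quenches rhodopsin, rose by 0.84 ± 0.16 (adjusted p 0.000296). The long rdgA mRNA, for a diacylglycerol kinase, fell by 1.12 ± 0.16 (adjusted p 3.73e-05; lost without the length trend). The 5 photoreceptor markers, all detected, summed to 1577 to 2224 CPM in polysomes at 15 d and 2430.3 to 3231 CPM at 2-3 d, and to 2263 to 2437 CPM in monosomes at 15 d and 2679 to 3360 CPM at 2-3 d. The ages did not overlap in either fraction, and the markers' part in the ratios was not tested.

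Muscle genes were much less abundant at 15 d, with no common direction in the ratio. Of 28 sarcomere genes 26 were lower in polysomes (median −2.06) and 27 in monosomes (median −2.09) at 15 d. In the ratio 5 were higher and 5 lower, with a median of −0.12 (−0.0029 without the length trend, and −0.16 to −0.024 with 1 replicate left out). Mhc, the muscle myosin heavy chain, stood at 72.5 to 144 CPM (median 105) at 15 d, against 988 to 1541 CPM (median 1158) at 2-3 d in polysomes and at 115 to 167 CPM (median 148) at 15 d, against 717 to 1141 CPM (median 899) at 2-3 d in monosomes. Its ratio fell by 0.79 ± 0.19 (adjusted p 0.00194), a call lost without the length trend. The 6 muscle markers, all detected, summed to 780.1 to 982 CPM in polysomes at 15 d and 4380.1 to 6411 CPM at 2-3 d, and their part in the ratios was not tested. The giant titin-like genes sls and bt had the highest ratios in Lsp2[A10] replicate 1 at 15 d, 14 and 16.8, against at most 3.43 for sls and 3.42 for bt at 2-3 d.

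The genes with the largest age changes over both alleles were chosen among those of at least 5 CPM whose 6 ratios at 15 d all lay above, or all below, those at 2-3 d. Such separation was found for 2098 genes in all (20.3%), 9.81% higher and 10.5% lower at 15 d. Past the threshold and the level, 923 higher and 1028 lower genes met the rule. The 10 highest were mt:ND4, CG30016, CG34284, COX7AL2, CG33307, CG43774, CG42397, CG1889, CG15423 and CG6421, with age changes of 1.68 to 2.22. Apart from mt:ND4 and COX7AL2, these genes carry a number in place of a name, and 7 of the 10 have transcripts under 1 kb.

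**Figure D5:**
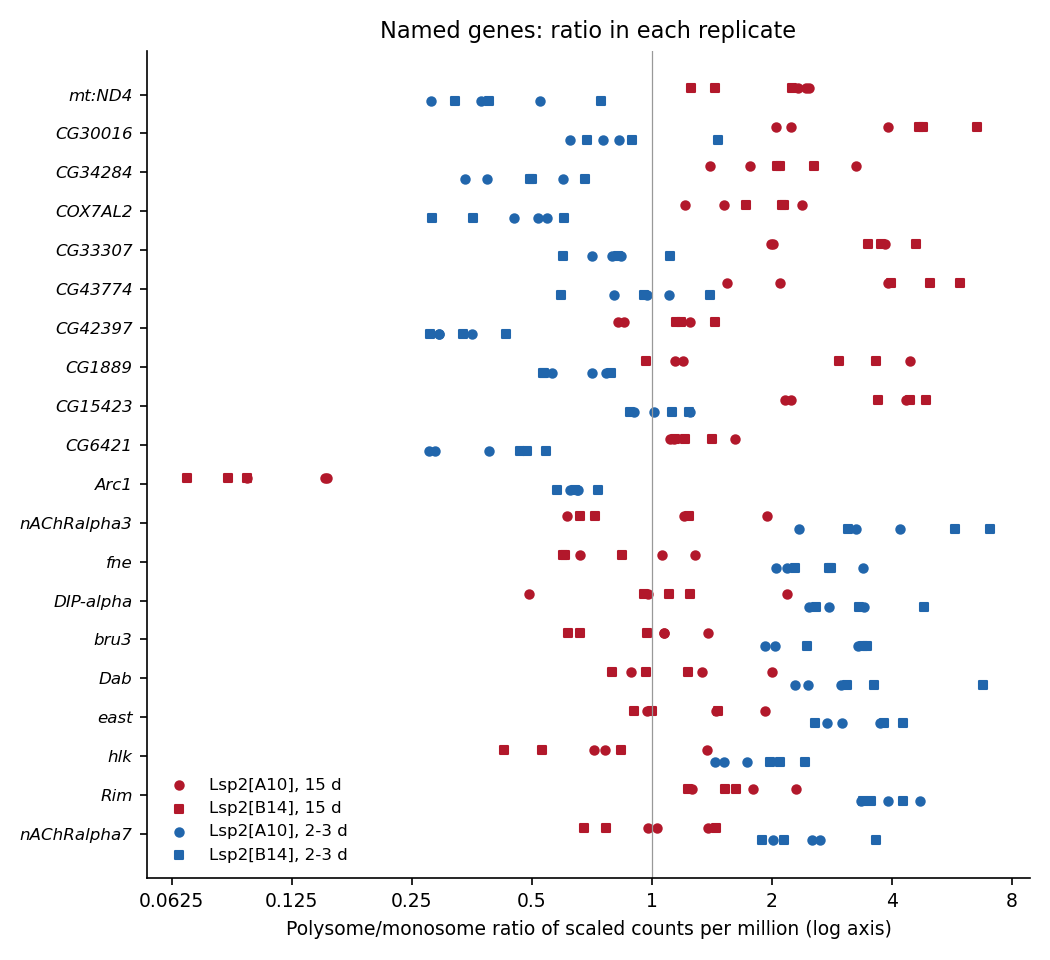
Polysome to monosome ratio (log axis) in each replicate for the 10 genes with the largest rise and the 10 with the largest fall over both alleles, 15 d (red) above 2-3 d (blue) in each row, circles for Lsp2[A10] and squares for Lsp2[B14]. By the rule that chose them the ages do not overlap; the points of Arc1 at 15 d, at most 0.153, are the lowest.

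CG34284 (FBgn0085313; 3R at 18902338 to 18902933, minus strand) had ratios of 1.76, 1.40 and 3.26 in Lsp2[A10] and 2.10, 2.56 and 2.06 in Lsp2[B14] females at 15 d, against 0.386, 0.597 and 0.340 in Lsp2[A10] and 0.50, 0.494 and 0.679 in Lsp2[B14] females at 2-3 d. Its age change was 2.07 ± 0.23 (adjusted p 5.36e-06). CG30016 (FBgn0050016) rose by 2.12 ± 0.25 (adjusted p 1.03e-05), with ratios of 2.04 to 6.54 at 15 d and 0.625 to 1.46 at 2-3 d. The rise went with more of the mRNA in polysomes (1.01, adjusted p 2.38e-05) and less in monosomes (−1.11, adjusted p 1.68e-05). CG33307 was less abundant in both fractions at 15 d, by more in monosomes (−3.48, adjusted p 2.83e-13) than in polysomes (−1.55, adjusted p 4.31e-08).

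The 10 that fell furthest were Arc1, nAChRalpha3, fne, DIP-alpha, bru3, Dab, east, hlk, Rim and nAChRalpha7. nAChRalpha3 and nAChRalpha7 are acetylcholine receptor subunits, Rim organizes the presynaptic active zone, DIP-alpha is a synaptic adhesion protein and fne is a neuronal RNA-binding protein. All but Arc1 have transcripts of 5607 to 11676 bases, and the calls of fne and bru3 were lost without the length trend. nAChRalpha3 (FBgn0015519; X at 8276200 to 8367169, minus strand) had ratios of 0.614 to 1.95 at 15 d, against 2.34 to 7.03 at 2-3 d. Its age change was −2.10 ± 0.35 (adjusted p 0.000132), and in Lsp2[A10] alone, at −1.77 (adjusted p 0.0419), the call was lost under 11 alternatives. east, a nuclear protein named for enhanced adult sensory threshold (−1.38 ± 0.21, adjusted p 7.36e-05), rose in both fractions at 15 d, by 1.87 in monosomes (adjusted p 6.47e-10) and 0.49 in polysomes (adjusted p 0.00626).

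Arc1 (FBgn0033926), whose protein forms retrovirus-like capsids that carry its own mRNA, had the largest fall of any named gene. The ratio was 0.152, 0.153 and 0.0967 in Lsp2[A10] and 0.0966, 0.0685 and 0.0865 in Lsp2[B14] females at 15 d, against 0.652, 0.651 and 0.624 in Lsp2[A10] and 0.732, 0.580 and 0.641 in Lsp2[B14] females at 2-3 d. The highest replicate at 15 d, 0.153, lay far below the lowest at 2-3 d, 0.580. The age change was −2.64 ± 0.19 (adjusted p 7.22e-09), −2.33 in Lsp2[A10] (adjusted p 6.9e-05) and −2.95 in Lsp2[B14] (adjusted p 8.64e-07). In monosomes Arc1 stood at 314 to 1057 CPM (median 653) at 15 d, against 172 to 269.7 CPM (median 207) at 2-3 d, and in polysomes at 48.1 to 102 CPM (median 59.1) at 15 d, against 112 to 172 CPM (median 131) at 2-3 d, so the mRNA was more abundant in monosomes and less abundant in polysomes at 15 d without overlap in either. Its single exon makes a 2371 base transcript, and genes of 2 to 3 kb had a median age change of −0.16. Over the 21 alternatives run, with removal of the length trend among them, its age change lay between −2.95 and −2.45.

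In each allele alone the same rule was applied with 3 against 3 replicates, where the ratios of 42% of genes did not overlap in Lsp2[A10] (20.5% higher and 21.5% lower at 15 d) and those of 53.2% in Lsp2[B14] (25.5% higher and 27.7% lower). In Lsp2[A10] the 3 largest rises were CG15282, mt:ND4 and CG34284 and the 3 largest falls Arc1, nAChRalpha3 and mei-41, the fly ATR kinase. The Lsp2[A10] call of mt:ND4 was lost in 5 of 22 alternatives, among them leaving out its 15 d replicate 3 or any of its 2-3 d replicates, and that of mei-41 in 7 of 22. CG15282 had ratios of 3.91, 7.09 and 13.1 in Lsp2[A10] and 1.93, 2.64 and 1.22 in Lsp2[B14] females at 15 d, against 0.637, 1.83 and 0.507 in Lsp2[A10] and 1.43, 1.16 and 0.802 in Lsp2[B14] females at 2-3 d. It rose by 2.84 in Lsp2[A10] (adjusted p 0.0139) and stood at 0.70 in Lsp2[B14] (adjusted p 0.356), and the first call was lost with libraries thinned to the shallowest total and without Lsp2[A10] replicate 3 at 15 d or replicates 1 or 3 at 2-3 d. In Lsp2[B14] the largest rises were Daao2, a D-amino acid oxidase, CG30016 and CG43774 and the largest falls Arc1, nAChRalpha3 and Lsp1beta, the call of Lsp1beta in Lsp2[B14] being lost in 5 of 22 alternatives. Daao2 had ratios of 0.879, 1.38 and 1.19 in Lsp2[A10] and 3.07, 3.65 and 3.0 in Lsp2[B14] females at 15 d, against 0.864, 0.991 and 0.941 in Lsp2[A10] and 0.490, 0.511 and 0.740 in Lsp2[B14] females at 2-3 d. It rose by 2.46 in Lsp2[B14] (adjusted p 0.000139) and stood at 0.40 in Lsp2[A10] (adjusted p 0.469). For neither gene did the difference between the alleles pass the threshold in the same fit.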

How the data were processed

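Monosome and polysome libraries of whole Lsp2[A10] and Lsp2[B14] females were used, with groups taken from the labels. The deposited tables, 1 per age, hold raw read counts per gene made by the authors. Per the submitters' processing notes, fastp 0.23.2, Bowtie2 2.3.4.1, STAR 2.2.1, featureCounts 1.6.0, R 4.2.0 and build BDGP6 were used, with no role or order given, and counting options and strand are not given in the sources used here. Reads shared by near-identical or overlapping genes may therefore be split or lost.

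Of 13925 features, 10324 passed filterByExpr and were fitted in edgeR 4.0.16 (R 4.3.3; TMM, robust quasi-likelihood, 8 groups of 3 libraries). The age change is the polysome minus monosome log2 difference at 15 d minus that at 2-3 d. Per-replicate ratios use CPM on TMM-scaled totals with a prior count of 0.5, and set monosome beside polysome libraries by replicate number. Lengths are of the longest transcript in the BDGP6.54 annotation (Ensembl 115). The length trend was removed as a smooth offset of log count on log2 length in each library. The script was tested on simulated data for the change over both alleles on 10181 genes: 64.6% of 99 genes changed by log2 1 and 93% of 100 changed by log2 2 were recovered, with 8 false among 165 calls. For Lsp2[A10] alone 44.4% were recovered at log2 1, with 5 false among 138 calls. For Lsp2[B14] alone it was 51.5%, with 14 false among 151. The simulated data held no length trend and far fewer changed genes than were called here, so they do not test those conditions. Replicate libraries differed beyond sampling noise in all 24 pairs (chi-square per degree of freedom 7.81 to 74.8).

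Named genes were, at a mean of at least 5 CPM, the 10 largest called rises and falls over both alleles and 3 per allele without overlap between replicates, the 2 highest and 2 lowest members of each list, called or not, and Lsp2 and Thor. The genes and lists were chosen with earlier results of these data known. Alternatives were other scalings, count filters, DESeq2 1.42.0, thinning to the shallowest library, fits of the compared groups only, a replicate block, removal of the length trend, and leaving out each replicate. Nothing in the labels says that replicates came from separate cultures beyond the design text's word biological, so p-values measure the spread between these samples.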

Additional observations from a re-analysis of the deposited data

How the results depend on the processing

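Age and table are confounded throughout, and depth limits scarce genes, as the shallowest library held 3134416 counts. The number of genes called over both alleles ran from 3274 to 4426 when 1 replicate was left out, and was 3019 with the length trend removed. For Lsp2[A10] alone it was 1433 with library totals, 1215 in DESeq2 and 318 with the length trend removed, and ran from 7 to 1196 with 1 replicate left out. For Lsp2[B14] alone it was 2220 with the length trend removed, and 1821 to 3352 with 1 replicate left out. The allele difference gave 0 to 2 genes, the polysome comparison 5912 to 6267 and the monosome comparison 6148 to 6522 with 1 replicate left out. The correlation of age change and length was −0.34 with no count filter and −0.013 with the length trend removed, and ran from −0.62 to −0.54 with 1 replicate left out. The slope difference ran from −0.36 to −0.28, with an exact permutation p of at most 0.00649. The values of both nearest to 0, and the lowest count over both alleles, came without Lsp2[A10] replicate 3 at 15 d.

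Monosome and polysome libraries of the same number deviated together in 9 of 12 pairs (correlation over 0.1; lowest −0.084, median 0.45, highest 0.73), and 10 of 12 correlated best with their own number. The labels do not say whether same-numbered libraries are pairs. For that reason the main fit left them unpaired, while the ratios, slopes and separation by replicate set them side by side by number. With a replicate block 5380 genes were called over both alleles, 2325 in Lsp2[A10], 4511 in Lsp2[B14] and 3 for the allele difference. With the replicate block and the length trend removed, these were 4183, 1535, 3450 and 87, and the correlation with length was −0.020. With library totals, Cdk1 moved to −0.0064. With the length trend removed, the age change was 0.29 for fs(1)M3, −0.012 for Cdk1, 0.25 for FASN1 and −0.0032 for Ilp8. With the block in addition it was 0.25 for fs(1)N, 0.29 for fs(1)M3, −0.011 for Cdk1, 0.25 for FASN1 and −0.00023 for Ilp8. As reported otherwise, these genes stood at −0.24 for fs(1)M3, 0.28 for Cdk1, −0.43 for FASN1, 0.41 for Ilp8 and −0.35 for fs(1)N. The cause was not tested.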

Other observations

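Small secreted hormones and digestive or structural proteins outside the classes above were read in the same way. Of 20 neuropeptide genes 7 were higher in the polysome to monosome ratio at 15 d and none was lower (median 0.36, and 0.00021 without the length trend), beside 20.3% higher among all genes. Nplp2, a neuropeptide precursor also made in fat body, rose by 1.05 ± 0.25 (edgeR adjusted p 0.00234), with ratios of 2.64 to 5.38 at 15 d, against 1.34 to 2.62 at 2-3 d. Of 46 cuticle protein genes tested of 117 listed, 12 were higher and 2 lower (median 0.30, 0.076 without the length trend), and most were less abundant at 15 d, 37 in polysomes (median −1.44) and 37 in monosomes (median −1.76). The median age change of this list was −0.089 with no filter on low counts. It reached 0.64 under another alternative, so its direction was not stable. Of 10 actin and tubulin genes 4 were higher and none lower (median 0.30, 0.31 without the length trend, 0.0028 with library totals and 0.19 without Lsp2[B14] replicate 2 at 15 d), including alphaTub84D (0.62 ± 0.14, adjusted p 0.00163). Of 6 lysozymes (median 0.44, −0.04 without the length trend) 1 was higher, LysP (0.82 ± 0.19, adjusted p 0.00197), a call lost without the length trend.

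The remaining lists had calls in both directions, in shares near the 42.5% of all genes or on few genes. Of 22 V-ATPase subunits, which acidify organelles, 4 were higher and 4 lower (median −0.091, −0.062 without the length trend, and −0.14 to −0.037 with 1 replicate left out). Of 16 core spliceosome genes 4 were higher and 2 lower (median 0.067, −0.04 without the length trend, and 0.037 to 0.17 with 1 replicate left out). The short SNRPG mRNA, for an Sm ring protein, stood at 0.82 ± 0.19 (adjusted p 0.00144). Of 16 genes of lipid transport, storage and synthesis 2 were higher and 4 lower (median −0.14, and −0.18 to −0.026 with 1 replicate left out). Without the length trend this list turned to 6 higher and 0 lower, with a median of 0.21. FASN1, a fatty acid synthase, fell by 0.43 ± 0.13 (adjusted p 0.0134), a call lost without Lsp2[A10] replicate 2 or 3 at 15 d and of opposite sign (0.25) without the length trend. Of the 5 histone variant genes 2 were higher and 1 lower (median 0.11, 0.095 without the length trend, and 0.086 to 0.22 with 1 replicate left out). His2Av, the H2A.Z-type variant, had ratios of 0.745 to 0.875 at 15 d, against 0.929 to 1.24 at 2-3 d (−0.39 ± 0.12, adjusted p 0.0119).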
